A study of Mus musculus with 12 samples.

Results

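Macrophage genes were followed in mouse embryos, in anterior hard palate tissue from the front of the roof of the mouth, where bone forms before birth. The set held 10 genes of the 24391 in the count files, taken by name. Of these, 9 mark macrophages (Csf1r, Mrc1, Cd14, Lyz2, C1qa, C1qb, C1qc, Cx3cr1 and F13a1) and 1, Mpo, marks granulocytes and their precursors. The groups were Shox2-Cre;R26R-Fgf8 mutants at embryonic day 14.5 (E14.5), wild-type controls at E14.5, the same mutants at E16.5 and wild-type controls at E16.5, with 3 RNA libraries each and 12 in all, from C57BL/6 embryos. In the mutants, Cre made under control of Shox2, a gene of the anterior palate mesenchyme, switches on Fgf8 from the Rosa26 locus, so the transgene is on wherever Shox2 has been active. The labels do not say whether a library is 1 embryo or a pool, nor whether any control carried 1 of the 2 alleles, so each p-value measures the spread between libraries that may differ only technically.

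Macrophages enter embryonic tissues from the yolk sac and later from the fetal liver. In a growing tissue they engulf dying cells, coat debris with complement and shape vessels, and they live on signals through the CSF1 receptor. Monocyte precursors of the same lineage also fuse into the osteoclasts that resorb bone. Granulocyte precursors arise beside them in blood-forming tissue and carry granule enzymes such as myeloperoxidase.

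Total counts ran from 76417891 to 125996587 per library, and levels are given in CPM, counts scaled to a common library total. Fgf8 itself was at 10.5 to 11.1 CPM in E14.5 mutants, against 0.249 to 0.423 CPM in E14.5 controls, and at 14.0 to 17.8 CPM in E16.5 mutants, against 0.257 to 0.462 CPM in E16.5 controls. E16.5 mutant libraries 1 and 3 stood apart in retinal genes: Fgf15 was at 40.4, 0.347 and 21.2 CPM in E16.5 mutants 1, 2 and 3, against 0.0901 to 0.883 CPM in E16.5 controls. For the 10 genes, values without these libraries are given where they change a result. For other genes such values are given for the difference between ages alone, so their other E16.5 mutant values rest on all 3 libraries. All 9 macrophage genes and all 24 further macrophage genes listed were detected, as were all 10 genes shared by white blood cells. The T cell gene Cd3e had 0 counts in 11 of the 12 libraries. Exons of Csf1r, Cx3cr1, F13a1 and Mpo overlap genes on the other strand in the GENCODE M21 annotation (Hmgxb3, Gm33858, Gm30489 and Gm11505), and as no strand setting is given, reads of the overlaps cannot be told apart.

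Promoters of 4 of the genes are shown because of how they behaved: Mrc1 and Mpo were lower in E14.5 mutants, and C1qb and C1qc moved together most closely of the macrophage pairs within groups. Each window is the RefSeq stretch from 250 bases before to 50 bases after the transcription start on mouse build GRCm38.p6, and capitals mark GAGGAA or its reverse complement TTCCTC, the core bound by PU.1. PU.1, made from Spi1, is the transcription factor that drives macrophage and granulocyte fate.
Mrc1 (chr2:14229164-14229463, plus strand): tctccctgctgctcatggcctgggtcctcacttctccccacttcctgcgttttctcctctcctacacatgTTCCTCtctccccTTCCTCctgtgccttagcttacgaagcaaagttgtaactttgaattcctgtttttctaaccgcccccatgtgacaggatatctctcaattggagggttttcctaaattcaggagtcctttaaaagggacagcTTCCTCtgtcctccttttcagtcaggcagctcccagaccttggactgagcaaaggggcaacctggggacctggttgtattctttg
Mpo (chr11:87793534-87793833, plus strand): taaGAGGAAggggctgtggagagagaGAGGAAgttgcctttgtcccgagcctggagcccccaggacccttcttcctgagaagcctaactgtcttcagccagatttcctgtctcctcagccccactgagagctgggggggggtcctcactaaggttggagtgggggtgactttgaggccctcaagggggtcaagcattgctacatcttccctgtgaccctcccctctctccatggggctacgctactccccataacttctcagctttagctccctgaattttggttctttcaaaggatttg
C1qb (chr4:136886151-136886450, minus strand): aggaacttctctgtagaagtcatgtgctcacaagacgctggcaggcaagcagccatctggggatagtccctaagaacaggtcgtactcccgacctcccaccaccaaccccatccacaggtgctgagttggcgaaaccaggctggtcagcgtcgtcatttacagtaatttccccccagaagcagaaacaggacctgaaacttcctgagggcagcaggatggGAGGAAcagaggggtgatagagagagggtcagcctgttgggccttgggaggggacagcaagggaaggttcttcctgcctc
C1qc (chr4:136892865-136893164, minus strand): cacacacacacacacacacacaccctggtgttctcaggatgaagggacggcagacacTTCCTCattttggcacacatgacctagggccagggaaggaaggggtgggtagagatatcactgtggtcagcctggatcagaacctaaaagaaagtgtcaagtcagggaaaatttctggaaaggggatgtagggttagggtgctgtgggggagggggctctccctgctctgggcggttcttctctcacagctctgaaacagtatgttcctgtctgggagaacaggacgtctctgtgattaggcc
The Mrc1 window held the core 3 times, at -180, -167 and -35 from the start, and Mpo held it at -247 and -224. C1qb held it at -30 and C1qc at -193. In all, 5 of the 7 members with a window held GAGGAA on either strand, against 28.3% of all 32817 promoter windows. The Lyz2 and Cx3cr1 windows, not shown, did not hold it. F13a1 had 2 windows, counted as 1 member, and Csf1r, Cd14 and C1qa had none. The RUNX motif TGTGGT was in 3 of the 7, against 16.8% of all windows. TTGCNNAA, bound by C/EBP factors, and TGCTGAC, part of the site of MAF factors, were in 0 of the 7, against 10.8% and 4.67% of all windows. None of these letter strings contains another. A match of letters is a description, not a bound site.

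**Figure D1:**
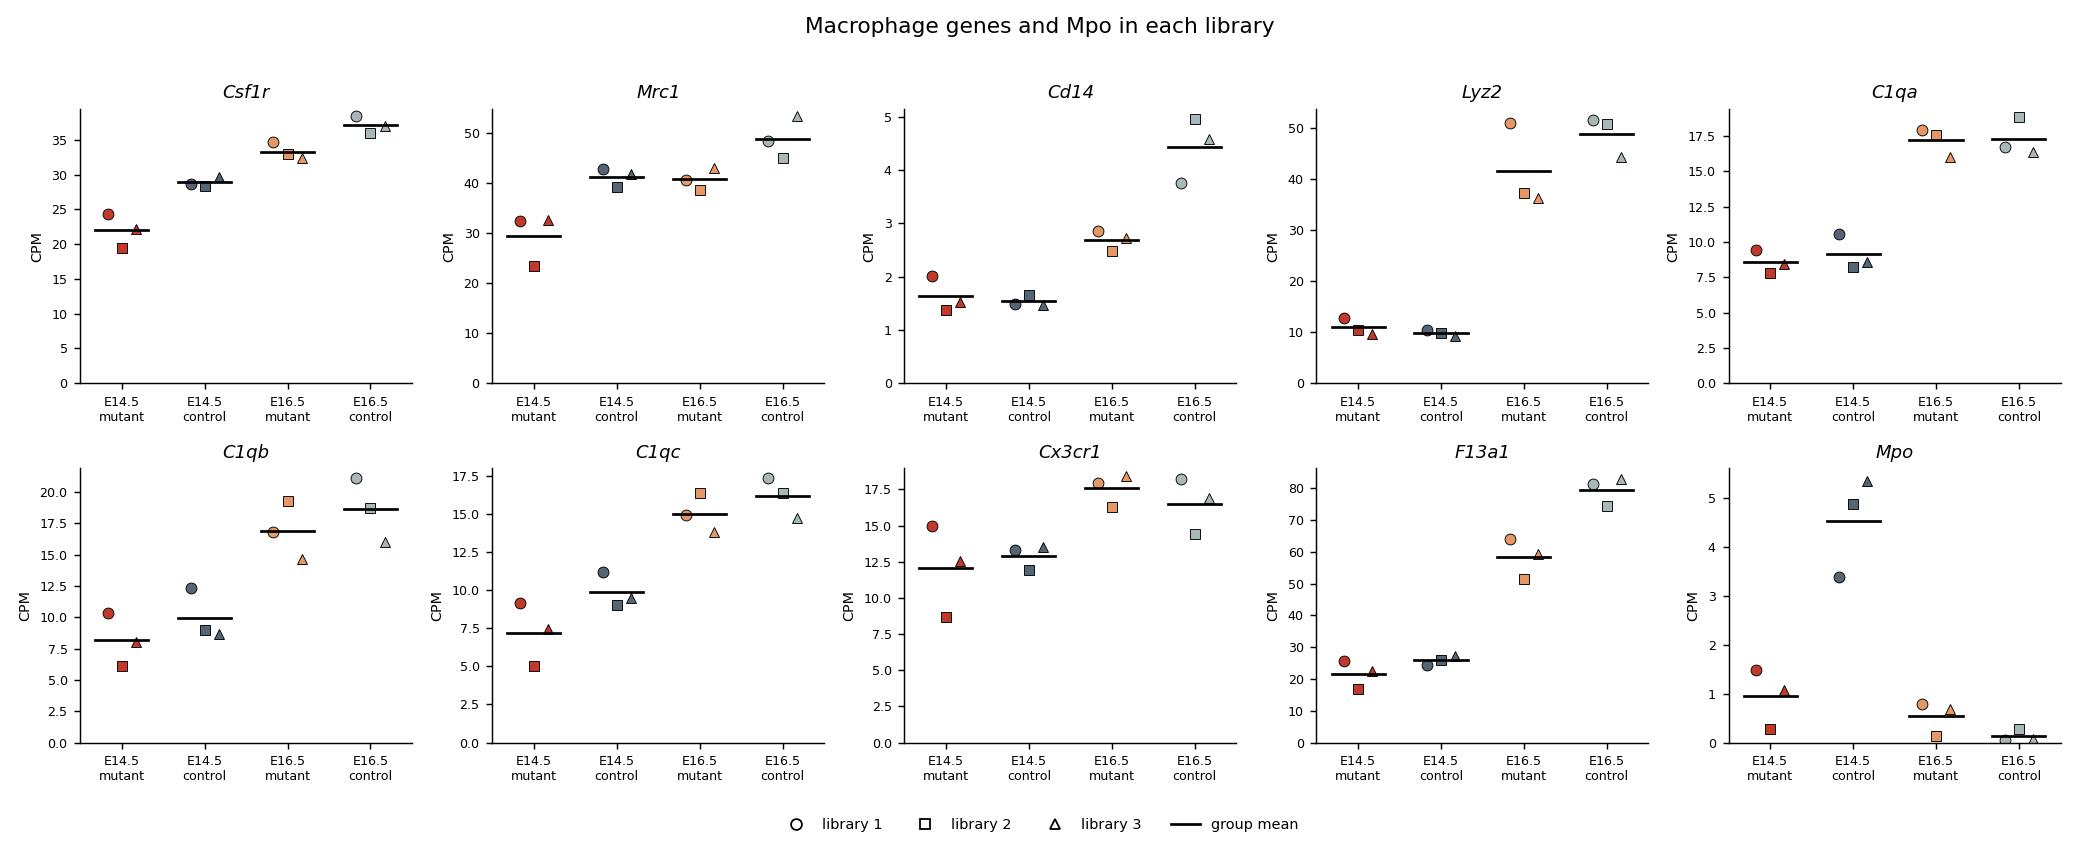
Level of each gene in CPM (vertical axes, from 0, each on its own scale) in 3 libraries of each of the 4 groups, with the group mean as a bar. Within each genotype the 9 macrophage genes stood higher at E16.5 than at E14.5, while Mpo was highest in the E14.5 controls at 3.40 to 5.35 CPM.

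The E14.5 comparison asks how the tissue with added Fgf8 differed as palate bone begins to form. Csf1r, Mrc1 and Mpo were lower in mutants, and the other 7 genes did not pass the test. That is 3 of 10 genes called, with 7.52% of all 16650 genes tested called either way, 4.57% called lower and 2.95% called higher. The median log2 fold change of the 9 macrophage genes was -0.27, with 0.01 over all genes tested. Summed over the 9 genes, mutants held 141, 98.8 and 125 CPM and controls 155, 143 and 149.8 CPM, with no overlap. In bulk tissue, fewer cells of a type and less RNA per cell cannot be told apart.

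Csf1r, the receptor for the survival signals CSF1 and IL-34, was at 24.4, 19.4 and 22.2 CPM in E14.5 mutants, against 28.7, 28.4 and 29.7 CPM in E14.5 controls. All mutants lay below all controls. The log2 fold change was -0.40 (SE 0.09, adjusted p = 0.0243 by edgeR's quasi-likelihood test with Benjamini-Hochberg adjustment, as for every adjusted p from edgeR here). Groups did not overlap for 14% of all genes in this direction and 28.6% in either. The call was lost without mutant 2 (adjusted p = 0.0728), control 1 (0.0594) or control 3 (0.0793).

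Mrc1, the mannose receptor of tissue macrophages, was at 32.4, 23.4 and 32.7 CPM in E14.5 mutants, against 42.8, 39.2 and 41.8 CPM in E14.5 controls. Again no mutant reached a control, and mutant 2 was the lowest library. The log2 fold change was -0.48 (SE 0.12, adjusted p = 0.0323 by edgeR), and the call was lost without control 1 (adjusted p = 0.0927) or control 3 (0.0925).

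Mpo, the granule enzyme that makes hypochlorous acid, had 120, 23 and 90 reads in E14.5 mutants, against 333, 627 and 455 reads in E14.5 controls. As levels these were 1.49, 0.283 and 1.07 CPM in mutants and 3.40, 4.88 and 5.35 CPM in controls, with no overlap. The exact Poisson interval (95%, counting error only) of the lowest library, mutant 2, was 14.6 to 34.5 reads, and that of the lowest control was 298 to 371 reads, so the libraries differ by more than counting. Mpo was 4.80-fold lower in mutants (log2 fold change -2.26, SE 0.42, adjusted p = 0.0102 by edgeR). The call held without each library in turn (adjusted p 0.00531 to 0.0362) and missed the threshold when all 12 libraries shared 1 fit (adjusted p = 0.0531). In the authors' deposited table the log2 fold change of Mpo was much smaller, -0.40, with an adjusted p of 0.0173, while those of Csf1r (-0.37) and Mrc1 (-0.43) were close to the values above. DESeq2 run here on the deposited counts gave -2.27 for Mpo (adjusted p = 0.00674). It gave -0.40 for Csf1r and -0.49 for Mrc1, also larger in size than the deposited values. For Csf1r the adjusted p by DESeq2 was 0.000765 here and 0.000762 as deposited. The cause of the gap was not tested.

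The remaining surface receptors overlapped between genotypes at E14.5. Cx3cr1, the receptor for the membrane-bound chemokine CX3CL1, was at 15.0, 8.68 and 12.6 CPM in mutants, against 13.3, 11.9 and 13.5 CPM in controls (log2 fold change -0.10, SE 0.17, adjusted p = 0.778 by edgeR). Cd14, the co-receptor that hands bacterial lipopolysaccharide to TLR4, was at 2.02, 1.37 and 1.53 CPM in mutants and 1.48, 1.65 and 1.47 CPM in controls (adjusted p = 0.830 by edgeR).

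The secreted products also overlapped. Lyz2, lysozyme, was at 12.8, 10.4 and 9.62 CPM in E14.5 mutants and 10.4, 9.80 and 9.26 CPM in E14.5 controls (log2 fold change 0.16, SE 0.12, adjusted p = 0.480 by edgeR). F13a1, the catalytic subunit of the clot-stabilising enzyme factor XIII, averaged 21.6 ± 4.48 CPM in mutants and 26.0 ± 1.37 CPM in controls (SD, n = 3 each; log2 fold change -0.27, adjusted p = 0.259 by edgeR). C1qa, C1qb and C1qc encode the 3 chains of C1q, the protein that starts the classical complement pathway, and each chain is needed to build it. Their log2 fold changes were -0.09, -0.29 and -0.46, with adjusted p values of 0.704, 0.410 and 0.174 by edgeR. C1qc came nearest to the threshold, at 9.15, 5.01 and 7.43 CPM in mutants and 11.2, 9.06 and 9.51 CPM in controls.

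E14.5 mutant 2 was the lowest library of its group for 8 of the 9 macrophage genes, and mutant 1 the highest for 8 of 9. Their mean deviations from the group mean were -0.29 and 0.27 on the log2 scale. The controls of that age stayed within -0.06 to 0.08.

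**Figure D2:**
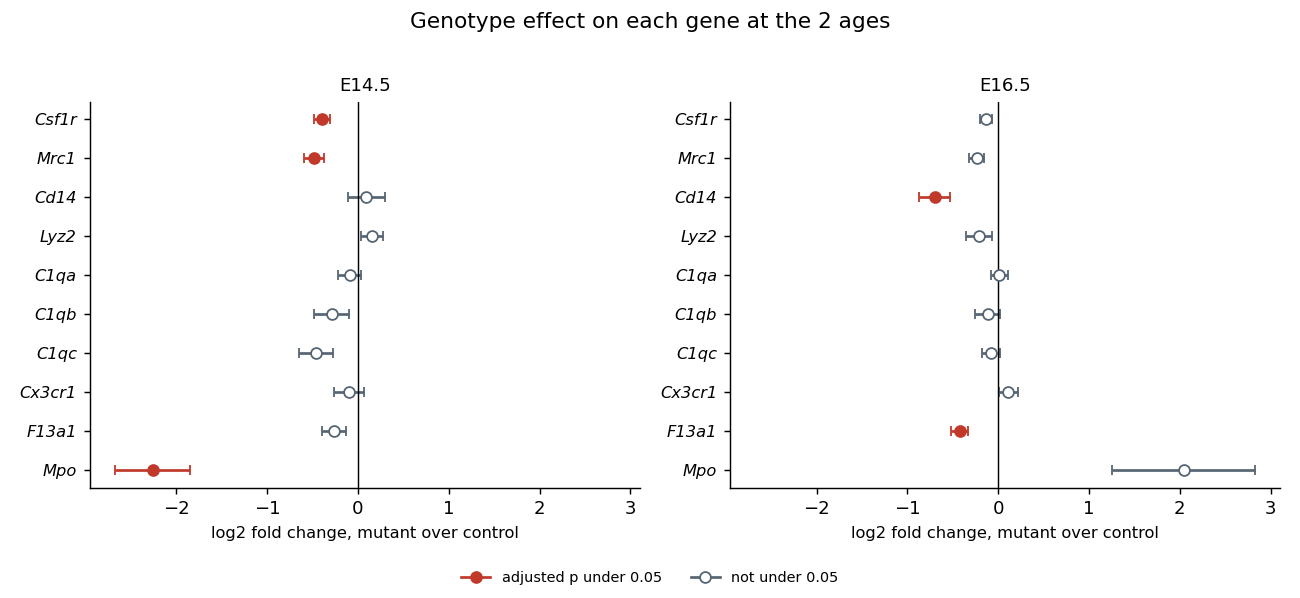
Log2 fold change of mutants over controls (horizontal axis) for each gene at E14.5 (left) and E16.5 (right), with bars of 1 SE and filled points where the adjusted p is under 0.05. At E14.5 Csf1r, Mrc1 and Mpo are filled, all below 0, and at E16.5 Cd14 and F13a1.

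At E16.5 another pair of macrophage genes was called, Cd14 and F13a1, both lower in mutants. No other member passed the test. That is 2 of 10 genes, with 27.9% of all 17169 genes tested called either way and 15.7% called lower, so the count is near the background. The median log2 fold change of the 9 macrophage genes was -0.13, with 0.01 over all genes. Their summed level was 261, 232 and 237 CPM in mutants and 297, 279.6 and 286 CPM in controls, with no overlap.

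Cd14 was at 2.85, 2.48 and 2.73 CPM in E16.5 mutants, against 3.76, 4.97 and 4.58 CPM in E16.5 controls. The groups did not overlap, as for 24.5% of all genes in this direction and 42.9% in either. The log2 fold change was -0.70 (SE 0.17, adjusted p = 0.0175 by edgeR). The call was lost without control 2 (adjusted p = 0.0762) or control 3 (0.0542), and held without mutants 1 and 3 (-0.83, adjusted p = 0.0381).

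F13a1 was at 64.1, 51.5 and 59.4 CPM in E16.5 mutants, against 81.5, 74.5 and 83.0 CPM in E16.5 controls. Every mutant lay below every control. The log2 fold change was -0.42 (SE 0.10, adjusted p = 0.0122 by edgeR), and without mutants 1 and 3 it was -0.62 (adjusted p = 0.00355). Without control 1 the adjusted p was 0.0514.

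Csf1r and Mrc1 did not overlap between genotypes at E16.5 either, but missed the threshold. Csf1r was at 34.7, 32.9 and 32.3 CPM in mutants and 38.5, 36.0 and 37.1 CPM in controls (log2 fold change -0.13, SE 0.07, adjusted p = 0.194 by edgeR). Mrc1 was at 40.6, 38.6 and 43.0 CPM in mutants and 48.3, 44.9 and 53.3 CPM in controls (-0.24, SE 0.08, adjusted p = 0.0603 by edgeR). With the replicate number as a block, since same-numbered E16.5 libraries deviate together, Mrc1 was called (-0.24, adjusted p = 0.00806 by edgeR). DESeq2 called it too (adjusted p = 0.0483), as did the authors' deposited result (-0.23, adjusted p = 0.0487 by DESeq2).

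Lyz2 was at 51.0, 37.4 and 36.3 CPM in E16.5 mutants and 51.7, 50.8 and 44.4 CPM in E16.5 controls. Mutant 1 alone stood among the controls, and the comparison did not pass the test (-0.21, adjusted p = 0.307 by edgeR). Without mutant 1 it was called (-0.40, adjusted p = 0.0193 by edgeR). Lyz1, the near-identical Paneth cell lysozyme, made up at most 0.642% of the reads of both, though how shared reads were counted is not given in the sources used here.

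The C1q chains were not called at E16.5. C1qa averaged 17.2 ± 1.005 CPM in mutants and 17.3 ± 1.36 CPM in controls, C1qb 16.9 ± 2.35 CPM in mutants and 18.6 ± 2.58 CPM in controls, and C1qc 15.0 ± 1.26 CPM in mutants and 16.2 ± 1.34 CPM in controls (SD, n = 3 each). Their log2 fold changes were 0.01 (SE 0.09), -0.12 (SE 0.13) and -0.08 (SE 0.10). Cx3cr1 averaged 17.6 ± 1.13 CPM in mutants and 16.5 ± 1.93 CPM in controls (0.11, SE 0.11, adjusted p = 0.480 by edgeR).

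Mpo was scarce at E16.5, with 92, 10 and 57 reads in mutants and 4, 25 and 6 reads in controls. Mutant 2 fell among the controls, so the groups overlapped. The log2 fold change of 2.04 (SE 0.79) did not pass the test (adjusted p = 0.0883 by edgeR). DESeq2 called it (adjusted p = 0.0411), as did edgeR without mutant 2 (adjusted p = 0.0161) or control 2 (0.0459). The authors' deposited value was 0.93 (adjusted p = 0.046 by DESeq2). The 2 mutants with more Mpo were libraries 1 and 3, those with retinal transcripts, and without them the log2 fold change was 0.01. Whether the 2 are linked was not tested.

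The genotype effect differed between the ages for 2 members. For Mpo the effect at E16.5 minus that at E14.5 was 4.29 on the log2 scale (SE 0.97, adjusted p = 0.00748 by edgeR's interaction contrast over 12 libraries), and it passed the threshold without each library in turn (0.00125 to 0.0226). Without E16.5 mutants 1 and 3 together it was 2.29 and not called (adjusted p = 0.35 by edgeR, with 1 mutant library left at that age). For Cd14 it was -0.82 (SE 0.25, adjusted p = 0.0335 by edgeR), but this call was lost in 8 of the 12 fits that left out 1 library (adjusted p up to 0.107) and without E16.5 mutants 1 and 3 together (-0.91, adjusted p = 0.0935 by edgeR). Over all genes, 22.3% were called for this difference, 9.97% upward and 12.4% downward. Csf1r, called at E14.5 alone, gave 0.24 (SE 0.11, adjusted p = 0.143 by edgeR), Mrc1 gave 0.22 (adjusted p = 0.359) and F13a1, called at E16.5 alone, gave -0.18 (adjusted p = 0.523), so a change of effect was not shown for these.

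**Figure D3:**
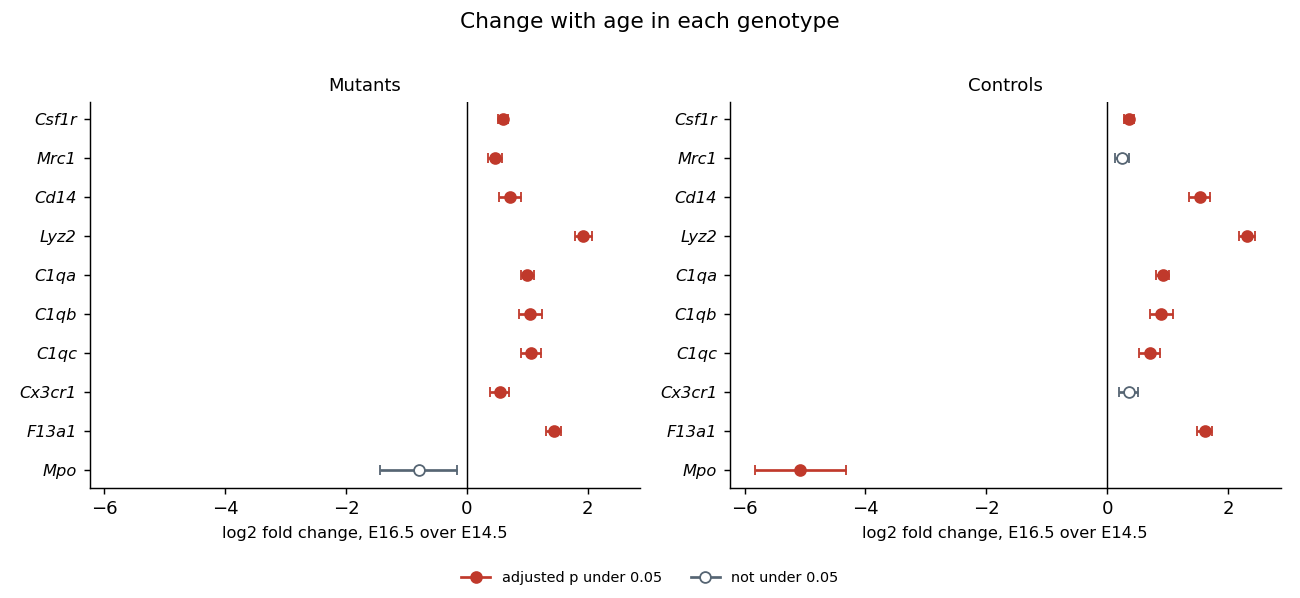
Log2 fold change of E16.5 over E14.5 (horizontal axis) within mutants (left) and within controls (right), with bars of 1 SE and filled points where the adjusted p is under 0.05. All 9 macrophage genes are filled and above 0 in mutants and 7 of 9 in controls, while Mpo in controls lies at -5.08.

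Most macrophage genes rose between E14.5 and E16.5. In mutants all 9 were called higher at E16.5, with 27.2% of all 17550 genes called higher and 51.6% either way. In controls 7 of 9 were, with 34.3% of all genes called higher and 66.4% either way. The median log2 fold change of the 9 was 1.004 in mutants and 0.90 in controls, with 0.00 over all genes in both. In each genotype every E16.5 library lay above every E14.5 library for all 9 genes, as for 28.4% of all genes in mutants (56.3% without overlap either way) and 36.8% in controls (72% either way). The genotype and age comparisons share libraries, so their values are given side by side only.

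Lyz2 rose most of the 9. It averaged 41.6 ± 8.18 CPM in E16.5 mutants and 10.9 ± 1.68 CPM in E14.5 mutants, a log2 fold change of 1.93 (SE 0.14, adjusted p = 1.3e-07 by edgeR). In controls it averaged 49.0 ± 4.01 CPM at E16.5 and 9.83 ± 0.587 CPM at E14.5 (SD, n = 3 each), 4.98-fold higher at the later age (2.32, SE 0.14). F13a1 rose by a log2 fold change of 1.44 in mutants and 1.62 in controls.

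The C1q chains rose together, with log2 fold changes in mutants of 1.004 for C1qa, 1.05 for C1qb and 1.06 for C1qc, and gave 0.92, 0.90 and 0.71 in controls. Cd14 gave 0.71 in mutants and 1.53 in controls. Csf1r, Mrc1 and Cx3cr1 changed least of the 9. Csf1r gave 0.60 in mutants and 0.36 in controls. Mrc1 gave 0.47 in mutants, but 0.24 in controls, short of the threshold (adjusted p = 0.0687 by edgeR), as Cx3cr1 gave 0.54 in mutants and 0.35 in controls (adjusted p = 0.0633 by edgeR). In replicates 1 and 2 alone, the calls of Cd14 (adjusted p = 0.0767) and Cx3cr1 (0.103) in mutants were lost. Without E16.5 mutants 1 and 3, the calls of Mrc1 (0.41, adjusted p = 0.0571), Cd14 (0.62, adjusted p = 0.0662) and Cx3cr1 (0.46, adjusted p = 0.133) in mutants were lost by edgeR.

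Mpo went the other way in controls. It was 33.8-fold lower at E16.5 than at E14.5, at 0.0478, 0.282 and 0.0670 CPM in E16.5 controls, against 3.40, 4.88 and 5.35 CPM in E14.5 controls (log2 fold change -5.08, SE 0.75, adjusted p = 5.22e-05 by edgeR). Without E16.5 control 2, the highest of its group, it was 76.9-fold lower, and without any other single library 25.8-fold to 38.1-fold lower. Of all genes, 32.1% were called lower and 35.2% lay lower without overlap. In mutants, already low at E14.5, it was at 0.789, 0.133 and 0.679 CPM at E16.5, against 1.49, 0.283 and 1.07 CPM at E14.5 (-0.79, SE 0.64, adjusted p = 0.322 by edgeR). Without E16.5 mutants 1 and 3 the log2 fold change in mutants was -2.79 (adjusted p = 0.0502 by edgeR).

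Ratios of 2 genes within a library do not depend on library scaling. Other cells that make either gene also enter them, and their part was not tested. Of 18 ratio comparisons between genotypes, 7 showed no overlap. These ratios were chosen with the values known, 3 libraries against 3 cannot give a two-sided exact permutation p below 0.1, and the smallest p adjusted over the 18 was 0.257. Reads of Cd14 per read of Csf1r were 0.0690 to 0.0827 in E14.5 mutants, against 0.0494 to 0.0581 in E14.5 controls, and 0.0753 to 0.0843 in E16.5 mutants, against 0.0977 to 0.138 in E16.5 controls. The ratio was thus on the high side in mutants at the earlier age and on the low side at the later age.

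Lyz2 per Csf1r was 0.434 to 0.535 in E14.5 mutants, against 0.312 to 0.364 in E14.5 controls, and overlapped at E16.5. F13a1 per Csf1r was 1.57 to 1.85 in E16.5 mutants, against 2.07 to 2.24 in E16.5 controls, and overlapped at E14.5. C1qc per C1qa, 2 chains of 1 protein, was 0.641 to 0.967 in E14.5 mutants, against 1.06 to 1.11 in E14.5 controls. C1qa per Csf1r at E14.5 (0.381 to 0.403 in mutants, 0.289 to 0.369 in controls) and Cx3cr1 per Csf1r at E16.5 (0.495 to 0.571 in mutants, 0.401 to 0.474 in controls) were the others without overlap. At E14.5 the ratios of Cd14, Lyz2 and C1qa all have Csf1r, called lower in mutants, as their divisor. None of these numerators was called at that age, so the ratios are not separate results from that of Csf1r.

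**Figure D4:**
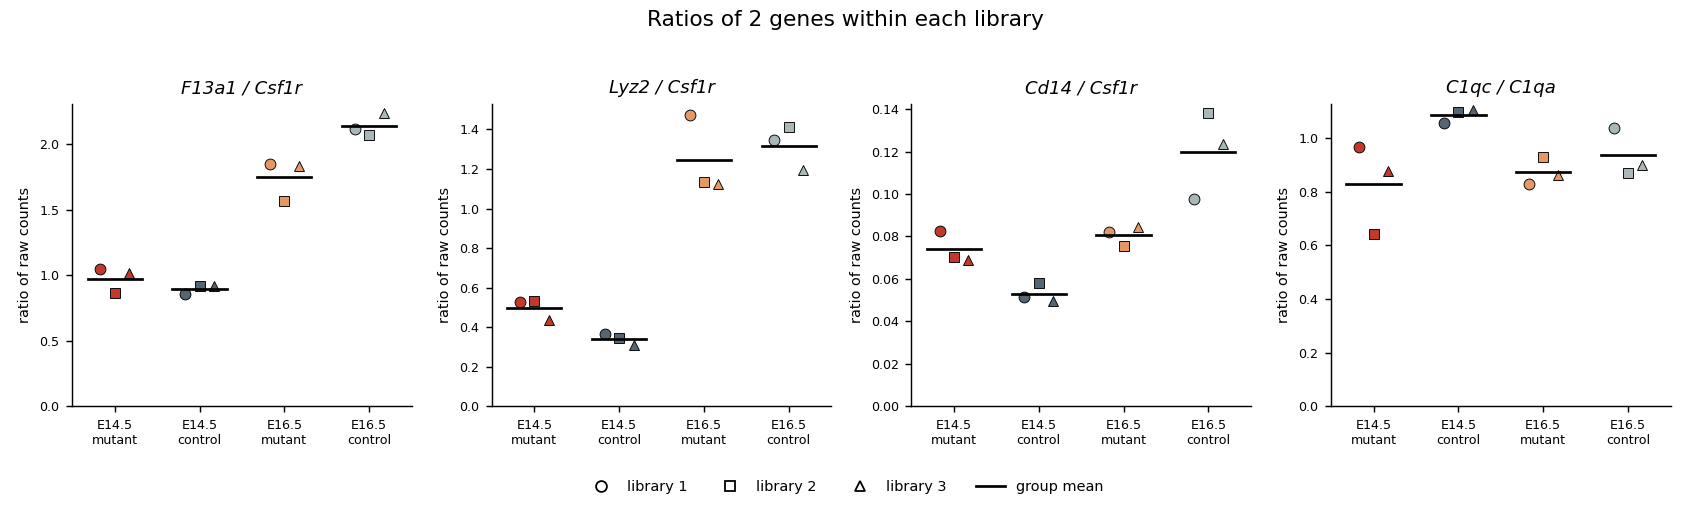
Ratio of the raw counts of 2 genes in each library (vertical axes, from 0) for 4 gene pairs in the 4 groups, with the group mean as a bar. Cd14 per Csf1r lies above the controls in E14.5 mutants and below them in E16.5 mutants.

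Across the 12 libraries the 36 pairs of macrophage genes had Pearson correlations of log2 CPM from 0.59 to 0.98 (median 0.85). The libraries fall into 2 ages, so much of this is the difference between ages. After the group means were subtracted the range was 0.01 to 0.93 (median 0.52), with C1qb and C1qc highest. Mpo correlated at -0.74 to -0.21 with the 9 genes across all libraries and at 0.09 to 0.77 after the group means were subtracted. All pairs share libraries and their depth, so these are descriptions.

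The genes most like Csf1r, of 13434 with a mean log2 CPM of at least 1, were Lcp2 (r = 0.97), Mbd2, Chad, Tlr13, Apobr and Ell2 (0.96 each) over 12 libraries. After the group means were subtracted they were Srp9 (0.95), Slpi (0.94), Tifab (0.93), Apobr (0.91), Wdr59 (0.89) and Lmcd1 (0.88). Slpi passed the level filter through E16.5 alone (34.8 to 100 CPM). At E14.5 it was at 0.0985 to 0.297 CPM, where few reads carry its deviations. Srp9 spread most in E14.5 mutants (37.5, 18.4 and 29.0 CPM), the group in which Csf1r also spread most. Apobr, a receptor for apolipoprotein B48 on macrophages, was in both sets.

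Among 24 further macrophage genes, 4 were lower and 0 higher in E14.5 mutants, with a median log2 fold change of -0.24. DESeq2 called 7 lower and 0 higher, and by edgeR 8 were lower and 0 higher at an unadjusted p under 0.05. The 4 lower genes were Spi1, which encodes PU.1 (5.27 to 6.77 CPM in mutants, 8.06 to 8.86 CPM in controls, -0.51), the lysosomal protein gene Laptm5 (-0.44), and the scavenger receptor genes Lyve1 (-0.90) and Stab1 (-0.59), which endothelial cells also express. At E16.5 Stab1 was higher (0.26) and Cbr2, a carbonyl reductase (143 to 156 CPM in mutants, 292 to 328 CPM in controls, -1.02), and the chemokine gene Ccl24 (-0.86) were lower. In controls Cbr2 was at 31.9 to 50.1 CPM at E14.5, while Csf1r was at 28.4 to 29.7 CPM at E14.5 and 36.0 to 38.5 CPM at E16.5. The part of cells other than macrophages in the value of Cbr2 was not tested. The shares over all genes were 4.57% lower at E14.5, and 15.7% lower and 12.2% higher at E16.5, so the E16.5 counts do not exceed the background. The core macrophage gene Adgre1 (F4/80) gave -0.16 and -0.13 at the 2 ages and did not pass the test. With age, 15 rose and 1 fell in mutants, and 10 rose and 6 fell in controls. Of all genes tested, 27.2% rose and 24.4% fell in mutants, and 34.3% rose and 32.1% fell in controls, so the control counts are near the background.

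Of 10 genes shared by white blood cells, Lcp1 (-0.24) and Rac2 (-0.64) were lower in E14.5 mutants, and Itgam (-0.73) and Cytip (-1.16) in E16.5 mutants. By edgeR and by DESeq2 0 were called higher at either age, and 1 was higher at an unadjusted p under 0.05, at E16.5. Over all genes, 4.57% were called lower at E14.5 and 15.7% at E16.5, so the E16.5 count is near the background. Ptprc, which encodes CD45, gave -0.14 and -0.03 and was not called.

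Signals that act on the members were also measured. Csf1, a ligand of the CSF1 receptor, was at 35.8, 40.6 and 40.2 CPM in E14.5 mutants, against 51.3, 51.9 and 53.7 CPM in E14.5 controls (-0.43, adjusted p = 0.00341 by edgeR), so ligand and receptor were both lower. At E16.5 its log2 fold change was 0.00. Il34, the other ligand, was not called by genotype at either age and rose with age in both genotypes (2.79 in mutants, 3.10 in controls). Cx3cl1, the ligand of CX3CR1, gave 0.26 at E14.5 and -0.14 at E16.5, neither called.

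Of 5 genes that act with CD14, the lipopolysaccharide-binding protein gene Lbp was lower in mutants at E14.5 (-0.60) and E16.5 (-0.75). Tlr4, the signalling receptor, was at 7.34, 7.58 and 8.23 CPM in E16.5 mutants, against 13.99, 14.6 and 15.3 CPM in E16.5 controls (-0.90, adjusted p = 0.000214 by edgeR), the age at which Cd14 was also lower. Ly96, Tlr2 and Myd88 were not called by edgeR at either age, although DESeq2 called Tlr2 higher in E16.5 mutants (0.29, adjusted p = 0.0408). Over all genes, edgeR called 4.57% lower at E14.5 and 15.7% lower at E16.5.

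Other genes of the classical complement pathway were also measured. Of 7 other classical complement genes, C4b was higher in E14.5 mutants (0.74), and C4b (2.11), C1ra (1.28) and C1s1 (1.29) were higher in E16.5 mutants, with 0 called lower by edgeR at either age (at E14.5, 1 at an unadjusted p under 0.05 and 1 by DESeq2). Over all genes, 2.95% were called higher at E14.5 and 12.2% at E16.5. C2, C3, C1qbp and Serping1 were not called by edgeR at either age. At E16.5 C2 was at 2.13 to 2.26 CPM in mutants and 2.28 to 2.70 CPM in controls. C3 was at 1.91 to 2.28 CPM in mutants and 2.20 to 2.98 CPM in controls. C1qbp was at 95.9 to 111 CPM in mutants and 90.0 to 98.2 CPM in controls. Serping1 was at 13.1 to 21.9 CPM in mutants and 12.1 to 14.6 CPM in controls. C1r and C1s are the proteases bound to C1q, and many stromal cells make them. C1s1 was at 43.6, 26.6 and 29.5 CPM in E16.5 mutants, against 13.8, 14.7 and 13.2 CPM in E16.5 controls, with mutant 1 the highest. Tgm2, a transglutaminase related to F13a1, was lower in mutants at E14.5 (-0.42) and E16.5 (-1.06). F13b, the carrier subunit of factor XIII made in liver, was listed at 0 in every library.

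Mpo was compared with 11 other granulocyte genes in the files. Elane, neutrophil elastase, had 22, 2 and 12 reads in E14.5 mutants, against 44, 96 and 76 reads in E14.5 controls (-2.24, adjusted p = 0.0432 by edgeR). Prtn3, proteinase 3, was at 1.93, 1.45 and 1.93 CPM in mutants, against 2.48, 3.62 and 3.08 CPM in controls (-0.79, adjusted p = 0.0366 by edgeR). Ctsg, cathepsin G, had 20, 0 and 6 reads in mutants, against 36, 83 and 40 reads in controls, and was not called (-2.22, adjusted p = 0.0982 by edgeR). E14.5 mutant 2 had the fewest reads of each of these among the E14.5 libraries, as of Mpo.

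These enzymes are packed into the primary granules of early granulocyte precursors. Genes of mature neutrophils were not called at E14.5. S100a8 gave -0.17 and S100a9 -0.21 at that age, and Ngp gave 0.10 and Camp 0.72. At E16.5 Ltf, lactoferrin, which glands also make, was at 75.5 to 91.0 CPM in mutants, against 184 to 205 CPM in controls (-1.18). It was the sole granulocyte gene called of 8 tested. The share of all genes called lower was 4.57% at E14.5 and 15.7% at E16.5.

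**Figure D5:**
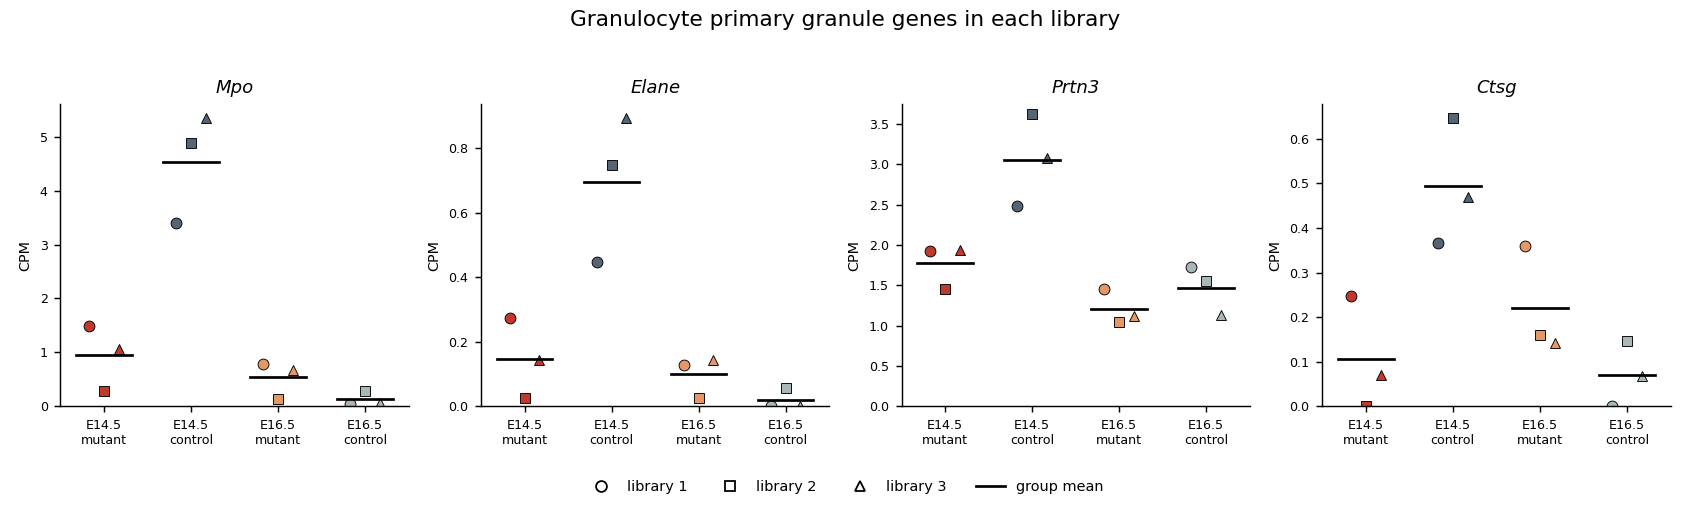
CPM (vertical axes, from 0, each on its own scale) of Mpo and 3 other genes of primary granules in each library of the 4 groups, with the group mean as a bar. E14.5 controls are the highest group in all 4 panels, and mutant 2 is the lowest E14.5 library.

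Markers of other cell types moved as well. Osteoclast genes were called lower in 6 of 12 cases in E14.5 mutants (Dcstamp -1.01, Ocstamp -0.80, Mmp9 -0.77 and Atp6v0d2 -0.74 the furthest) and 0 higher (0 by DESeq2 and 0 at an unadjusted p under 0.05), and at E16.5 were called higher in 4 of 10 and lower in 1 (Mmp9, -1.82). Their summed level was 225 to 235 CPM in E14.5 mutants, against 294 to 324 CPM in E14.5 controls. The shares called over all genes were 4.57% lower and 2.95% higher at E14.5, and 15.7% lower and 12.2% higher at E16.5. Osteoclast precursors express Csf1r, and the part of these cells in its value was not tested.

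Endothelial genes were called lower in 6 of 10 cases in E14.5 mutants, with 4.57% of all genes called lower. They were called higher in 8 of 10 in E16.5 mutants, with 12.2% of all genes called higher. Their sums were 547 to 568 CPM in E14.5 mutants, against 653 to 699 CPM in E14.5 controls, and 398 to 502 CPM in E16.5 mutants, against 292 to 307 CPM in E16.5 controls, beside the values of Lyve1 and Stab1. Megakaryocytes, the platelet precursors, also make F13a1. Of 5 of their genes, Ppbp alone was called in E14.5 mutants (1.42, higher), with 2.95% of all genes called higher. Itga2b alone was called in E16.5 mutants (-0.55, lower), with 15.7% of all genes called lower, so that count is near the background. The 5 genes summed to 27.5 to 34.9 CPM in E16.5 mutants, against 36.3 to 41.3 CPM in E16.5 controls.

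Of 9 monocyte and dendritic cell genes, 0 were called at E14.5 by edgeR or DESeq2 (2 at an unadjusted p under 0.05 by edgeR). Ly6c1 (-0.57) and Itgax (-1.42) were lower in E16.5 mutants, with 15.7% of all genes called lower. The other 7 genes of this list were not called by edgeR at E16.5. Of 6 mast cell genes, 0 were called at E14.5 by edgeR or DESeq2 (0 at an unadjusted p under 0.05). Mcpt4 (2.08), Ms4a2 (1.10) and Cma1 (0.65) were higher in E16.5 mutants, with 12.2% of all genes called higher. Kit went the other way, at 35.1, 39.1 and 41.7 CPM in E16.5 mutants, against 42.1, 49.5 and 53.9 CPM in E16.5 controls. At that age 1 mast cell gene was lower at an unadjusted p under 0.05 by edgeR, and DESeq2 called 1 lower. Among 6 genes known from microglia, which also express Cx3cr1 and C1q, P2ry12 was not called by genotype. Tmem119, also an osteoblast gene, was lower at both ages (-0.90 and -2.13), and Sall1, also a mesenchymal gene, was higher (0.58 and 0.71). Of 6 red blood cell genes tested, 0 were called by genotype at either age by edgeR or DESeq2 (1 at an unadjusted p under 0.05, at E16.5), and of the lymphocyte genes Thy1 alone was called (0.60, higher in E16.5 mutants). The part of all these cells in the members' values was not tested.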

How the data were processed

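RNA was measured in 12 libraries by RNA sequencing. Per the submitters' processing notes, the authors used HISAT2, featureCounts and DESeq2 with mouse build mm9, and deposited raw counts per gene and library. Versions, annotation and strand setting are not given in the sources used here. The authors' deposited DESeq2 tables gave their log2 fold changes and adjusted p-values. Whole-series tables with 24 more per-sample columns were left out. Each file held 24391 genes, of which 27 carried date-like names (0.251% of counts) and are not named.

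Models were fitted to the counts with edgeR 4.0.16 in R 4.3.3 (TMM factors, filterByExpr, quasi-likelihood test), with Benjamini-Hochberg adjustment over all genes tested and calls at an adjusted p under 0.05. Genotype was compared on the 6 libraries of each age. The difference between ages and the age effects came from 1 fit of 12 libraries with 4 group means. The SE is the log2 fold change over the square root of the F statistic. CPM are TMM-scaled over the 12 libraries, and correlations use log2 CPM with a prior count of 2. The fits were tested on simulated data. Read ratios were compared by two-sided exact permutation tests in scipy 1.17.1. Reads carry no molecular identifiers, so Poisson intervals (95%) cover counting error only.

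The members and gene lists were chosen with earlier results of these data known. All members are described, with up to 4 called genes per list and comparison by size of change, or 2 by level where none was called, and ligands, partners and complement genes in full. Other genes named (Adgre1, Ptprc, Ctsg, S100a8, S100a9, Ngp, Camp, Cd3e, Lyz1, Kit and P2ry12) were chosen after their values were seen. Replicate numbers were taken to pair E16.5 libraries. There the deviations from the group mean of same-numbered mutants and controls correlated at 0.105, 0.161 and 0.222 over 17550 genes. At E14.5 they correlated at 0.0193, 0.0445 and 0.160, so replicate 3 alone came near the E16.5 values. Libraries of 1 group all differed by more than counting noise. Replicate 3 of every group has a sample number from a later block than replicates 1 and 2. The labels do not name a batch, so whether replicate 3 was prepared apart is not known. Alternatives were DESeq2 1.42.0, its size factors, no low-count filter, the replicate block, replicates 1 and 2 alone, a 12-library fit, leaving out E16.5 mutants 1 and 3, and leaving out each library in turn.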

Additional observations from a re-analysis of the deposited data

Results flagged for a closer look

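Genes are given here because the test of the difference itself, the genotype effect at E16.5 minus that at E14.5 in edgeR's 12-library fit, passed an adjusted p of 0.05. Among the members these were Mpo (4.29 on the log2 scale) and Cd14 (-0.82). Mpo was 4.80-fold lower in mutants at E14.5, and at E16.5 its point estimate was higher in mutants but not called. Without E16.5 mutants 1 and 3, the libraries with retinal transcripts, the difference was 2.29 for Mpo and -0.91 for Cd14, and neither was called (adjusted p = 0.35 and 0.0935 by edgeR). Cd14 was not called at E14.5 and was lower in mutants at E16.5.

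From the lists other than endothelial, mesenchymal and retinal genes, 24 genes met the same test. Elane, a granule enzyme gene like Mpo, gave 4.58, resting on 5 reads or fewer in each E16.5 control. The macrophage and white blood cell lists, whose genes other cells may also express, gave 0.98 for Lyve1, 0.82 for Stab1 and -1.31 for Cbr2. They also gave 0.45 for Lcp1, 0.84 for Rac2 and -1.43 for Cytip. Tlr4 gave -1.05, the same sign as Cd14. Of 7 complement genes, 4 passed this test, all with positive values, 1.30 for C1ra, 1.08 for C1s1, 1.35 for C4b and 0.68 for Serping1. The transglutaminase gene Tgm2 gave -0.67, Ly6c1 of the monocyte and dendritic cell list -1.07 and Tmem119 -1.25. The mast cell genes Mcpt4 and Ms4a2 gave 2.48 and 1.82. Osteoclast genes were mixed, with -1.09 for Mmp9 and 2.26 for Ocstamp, 3.17 for Dcstamp, 2.21 for Atp6v0d2 and 0.73 for Itgb3. The platelet gene Ppbp gave -1.42 and the lymphocyte gene Thy1 0.58. Without E16.5 mutants 1 and 3, all 24 kept their sign and 17 were called, and Elane, Mcpt4, Ms4a2, Lcp1, Serping1, Mmp9 and Thy1 were not. Of all genes tested 22.3% passed this test.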

How the results depend on the processing

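Of the alternatives for single members, 603 kept their direction and side of the threshold, 31 lost a call, 14 gained one and 12 changed sign, all 12 for effects that were not called. Members called numbered 3 at E14.5, 2 at E16.5 and 2 for the difference between ages, and 0 for each by edgeR in replicates 1 and 2 alone, where 3, 3 and 1 had an unadjusted p under 0.05 (DESeq2 was not run there). Leaving out 1 library gave 1 to 3 for each of these. DESeq2 called 4 members at E16.5. Over all genes, 1252 were called at E14.5, against 2060 by DESeq2, 3155 with the replicate block and 526 to 1412 without 1 library. At E16.5, 4793 were called, against 2286 in replicates 1 and 2 alone, 2496 without mutants 1 and 3 (1 mutant library is then assumed to vary like the controls) and 2781 to 5486 without 1 library. For the difference, 3921 were called, against 6055 with the block, 1961 in replicates 1 and 2 alone and 2017 without E16.5 mutants 1 and 3, where edgeR called 0 members (2 at an unadjusted p under 0.05, DESeq2 not run). Leaving out those mutants was added after seeing the data for the difference and for age in mutants, where it left 6 of 9 calls. Changes of sign at E16.5 were 0.0602 for C1qb, 0.0234 for C1qc and -0.0119 for Cx3cr1 without mutants 1 and 3, and -0.0103 for C1qa in the 12-library fit. Leaving out 1 library gave -0.0868 to 0.208 for Cd14, -0.173 to 0.0253 for C1qa and -0.286 to 0.0923 for Cx3cr1 at E14.5, -0.0326 to 0.0781 for C1qa at E16.5, and -0.035 to 0.19 for C1qa and -0.0284 to 0.388 for C1qb in the difference. The cause of these changes was not tested. At E16.5 the block changed no member's call other than that of Mrc1. Outside E16.5, same-numbered libraries correlated at -0.02 to 0.16. Replicate 3 was the highest in each comparison there (0.158 to 0.160), near the E16.5 values, so pairing was not settled. Outside the E16.5 genotype comparison the block added C1qc at E14.5 (-0.50, adjusted p = 0.025 by edgeR) and Lyz2 in the difference (-0.39, adjusted p = 0.0178 by edgeR). With age in controls it added Mrc1 (adjusted p = 0.0111 by edgeR) and Cx3cr1 (0.0113). Depth limits Mpo, Elane and Ctsg at E16.5, where controls held 25 reads or fewer of each.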
